A study of Mus musculus with 12 samples.

Results

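TCDD, the dioxin 2,3,7,8-tetrachlorodibenzo-p-dioxin, raised 25 of 14860 measured genes (0.168%) in wild-type mouse liver past the test used here, led by Cyp1a1 at 121-fold and Tiparp at 8.79-fold, and no gene passed it in the other direction. The spread in this test came from all 12 arrays of the study. With only the 6 wild-type arrays fitted, 7 of the 25 genes passed. The response of wild-type liver was described from 6 of the 12 arrays. These are 3 arrays of mice given TCDD and 3 of mice given corn oil, chosen by the genotype and treatment in their labels. All 12 mice had the mixed genetic background C57BL/6;129Sv and were 8 weeks of age. The wild-type mice were Tiparp +/+, and the other 6 arrays came from Tiparp knockout mice given the same treatments. TCDD was injected into the peritoneum at 30 µg per kg of body weight. The labels give no sex, no time between dose and collection, and no route for the corn oil. Liver RNA of each mouse was hybridised to an Affymetrix Mouse Exon 1.0 ST array, and all values are log2 expression made by the authors with RMA.

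The aryl hydrocarbon receptor (AhR) is a transcription factor held in the cytoplasm until a ligand such as TCDD binds it. It then enters the nucleus, pairs with Arnt and binds DNA elements with the core GCGTG. In liver it is known for inducing P450 enzymes of the CYP1 family and the enzymes that conjugate and clear foreign compounds. In rodents, dioxin is also known to cause weight loss, fatty liver and altered glucose and lipid metabolism. Tiparp is a mono-ADP-ribosyltransferase that AhR induces and that in turn represses AhR.

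The hepatocyte markers Alb and Ttr were near the top of the scale in all 6 wild-type arrays, at 13.88 to 13.97 and 13.76 to 13.81, and overlapped between the treatments. The number of arrays limits the precision of every value. Arrays correlated across probe sets with Pearson's r of 0.987 to 0.989 within the wild-type groups and 0.984 to 0.988 between them. The typical SD of a probe set over 3 arrays was 0.129 with corn oil and 0.136 with TCDD. TCDD replicate 3 stood apart from the other TCDD arrays in clock genes. Dbp, a clock output gene, read 10.88 there against 8.52 and 8.70 in TCDD replicates 1 and 2. Over all arrays 27 probe sets were called higher, and in fits without TCDD replicates 1, 2 and 3 the number was 10, 6 and 7. The drop was thus not particular to replicate 3.

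With the linear model of limma and p-values adjusted over all 23332 probe sets, 27 probe sets (0.116%) were higher with TCDD at an adjusted p below 0.05, and 0 were lower. Without adjustment, a p below 0.05 was reached by 966 probe sets (4.14%) with higher and 732 (3.14%) with lower values. Among the 14860 genes with a probe set of a single symbol, 25 were called, each higher with TCDD and each with TCDD arrays that all lay above all corn oil arrays. Their folds ran from 1.58 to 121, and 17 of them changed at least 2-fold. The plot of change against expression shows these calls above the bulk of genes, whose median change was 0.02. The count of probe sets called higher was 10, 6 and 7 without TCDD replicates 1, 2 and 3, and 17, 8 and 15 without corn oil replicates 1, 2 and 3. Cyp1a1, Ier3, Tbc1d8 and Josd1 were called in all 6 of these fits, while Nqo1, Nup155, Fzd7, Dapk2, Pla2g12a, Slc35d1, Lrrc8c and Slc25a46, 8 of the 25 genes, were called in none of them.

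**Figure D1:**
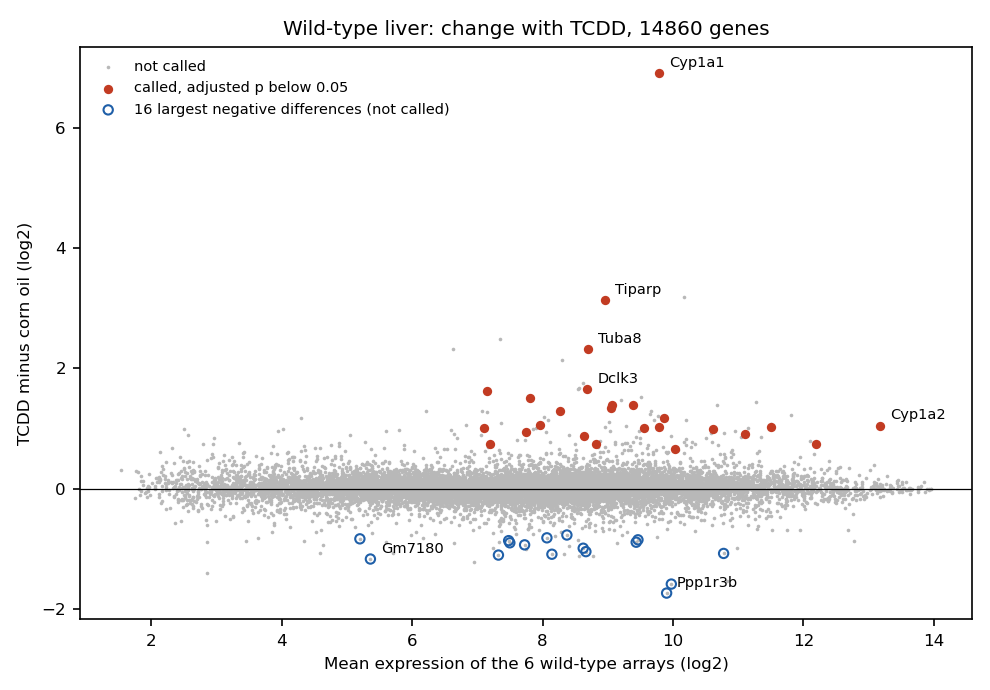
TCDD minus corn oil (log2) of each of 14860 genes against its mean expression over the 6 wild-type arrays (log2). Red points are the 25 called genes, all above 0, with Cyp1a1 highest at 6.92, and open blue points are the 16 largest negative differences with an unadjusted p below 0.05 and no overlap, none of them called.

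Cyp1a1 and Tiparp had the largest rises of the 25 called genes. Cyp1a1, the P450 that serves as the standard marker of AhR activity, read 5.47, 6.85 and 6.64 with corn oil and 13.19, 13.32 and 13.21 with TCDD. The TCDD arrays lay within a narrow band, and the log2 rise was 6.92 ± 0.32 (SE, n = 3 arrays a group; limma adjusted p = 1.59e-05). Tiparp read 7.42, 7.41 and 7.33 with corn oil and 9.91, 10.82 and 10.84 with TCDD. Its lowest TCDD value was replicate 1, and the rise was 3.14 ± 0.34 (SE; adjusted p = 0.00935). Cyp1a2, the member of the family that hepatocytes make without a ligand, began at 12.84, 12.64 and 12.45 and reached 13.60, 13.73 and 13.75. That was a rise of 1.05 ± 0.14 (SE; adjusted p = 0.023). The TCDD values of Cyp1a1 and Cyp1a2 lay near 14.16, the highest value of all arrays. Whether signal was compressed there was not tested.

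Of 27 listed AhR target genes 19 were measured, and 7 of these were called higher. Their median log2 change was 0.74, and 17 of the 19 changes were above 0. At an unadjusted p below 0.05, 11 of the 19 were higher and none was lower, where 4.62% of all genes were higher and 2.52% lower. Cyp1b1, a CYP1 enzyme with low expression in liver, read 6.05, 6.27 and 6.55 and then 7.2, 7.31 and 7.55, without overlap (change 1.06 ± 0.49, SE; adjusted p = 0.692). This SE pools all 4 groups. The SD of Cyp1b1 was 0.25 with corn oil and 0.18 with TCDD in wild-type liver, but 1.29 with TCDD in the knockout. With limma on only the 6 wild-type arrays its adjusted p was 0.192. Xdh, xanthine dehydrogenase, went from 10.83, 10.85 and 11.10 to 11.58, 11.80 and 11.97, likewise without overlap or call (0.86 ± 0.19, SE; adjusted p = 0.264). Ahrr, the AhR repressor, read 5.90, 5.88 and 5.95 and then 6.26, 6.57 and 6.44, without overlap or call (change 0.51 ± 0.30 SE, limma adjusted p = 0.781). Its SD with TCDD was 0.16 in wild-type liver and 0.79 in the knockout. With limma on only the wild-type arrays the adjusted p of Ahrr was 0.288. The receptor and its partner gave no such separation. Ahr read 10.64, 10.30 and 10.38 with corn oil and 9.85, 10.55 and 10.48 with TCDD, and Arnt differed by -0.13 ± 0.10 (SE), both with overlapping arrays.

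NRF2, encoded by Nfe2l2, is the transcription factor that turns on antioxidant genes, and it was among the called genes itself. Nfe2l2 read 11.07, 10.86 and 11.06 with corn oil and 12.07, 11.97 and 12.01 with TCDD, a rise of 1.02 ± 0.11 (SE; adjusted p = 0.00938). Nqo1, a quinone reductase controlled by both AhR and NRF2, rose from 6.70, 6.31 and 6.03 to 7.59, 8.36 and 7.94 (1.62 ± 0.25, SE; adjusted p = 0.0487). Srxn1, the sulfiredoxin that repairs oxidised peroxiredoxins, rose from 9.23, 9.19 and 9.38 to 10.36, 10.38 and 10.15 (1.03 ± 0.12, SE; adjusted p = 0.00938). Over the whole list of 17 measured NRF2 genes 3 were called, against 0.168% of all genes, and none of its other members was. At an unadjusted p below 0.05, 5 of the 17 were higher, the called 3 included, against 4.62%. The list's median was 0.18. Gsr, glutathione reductase, was near 10.1 in all corn oil arrays and at 11.16 and 11.30 in TCDD replicates 1 and 2, but at 10.33 in replicate 3 (0.84 ± 0.28, SE; adjusted p = 0.525). None of 14 glutathione S-transferases was called, where 0.168% of all genes were, and their median change was 0.06.

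Both genes that supply and move the sugar donor of glucuronidation were called. Ugdh makes UDP-glucuronate from UDP-glucose, and it rose from 11.93, 11.85 and 11.69 to 12.53, 12.67 and 12.49 (0.74 ± 0.08, SE; adjusted p = 0.00938). Slc35d1, which carries UDP-glucuronate into the endoplasmic reticulum, rose from 10.61, 10.70 and 10.64 to 11.46, 11.68 and 11.55 (0.91 ± 0.13, SE; adjusted p = 0.0259), a call that was lost whenever 1 wild-type array was left out. Only 7 of 19 genes of this list were measured as single genes, and their median change was -0.06. Of the measured transferases, Ugt2b35 stood highest, at 9.85 to 10.46 with corn oil and 10.92 to 11.21 with TCDD (0.92 ± 0.36, SE; adjusted p = 0.616). Genes of this family are close in sequence, so a probe set may read more than its named gene.

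Promoter sequence is shown for Cyp1a1 and Tiparp, the largest rises among called genes with a symbol, and for Ugdh, whose window holds both the AhR core and the antioxidant core. Sequences are RefSeq, GRCm38.p6, from 250 bases before the start site to 50 after it, on the strand of the gene. Capitals mark GCGTG, the AhR core, and TGACNNNGC, the core of the antioxidant element that NRF2 binds, on either strand. Cyp1a1 lies at chr9:57697363-57697662 (plus strand), Tiparp at chr3:65528197-65528496 (plus strand) and Ugdh at chr5:65435793-65436092 (minus strand).
Cyp1a1: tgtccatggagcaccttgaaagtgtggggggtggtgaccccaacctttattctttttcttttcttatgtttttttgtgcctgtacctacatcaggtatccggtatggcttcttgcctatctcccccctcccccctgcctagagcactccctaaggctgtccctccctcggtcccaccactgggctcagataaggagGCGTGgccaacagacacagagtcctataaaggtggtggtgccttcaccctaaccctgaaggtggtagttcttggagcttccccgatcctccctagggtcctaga
Tiparp: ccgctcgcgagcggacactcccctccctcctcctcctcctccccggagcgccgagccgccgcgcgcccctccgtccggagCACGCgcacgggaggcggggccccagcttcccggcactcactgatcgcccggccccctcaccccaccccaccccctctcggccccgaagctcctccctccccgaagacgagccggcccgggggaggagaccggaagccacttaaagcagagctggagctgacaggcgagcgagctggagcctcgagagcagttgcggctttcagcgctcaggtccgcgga
Ugdh: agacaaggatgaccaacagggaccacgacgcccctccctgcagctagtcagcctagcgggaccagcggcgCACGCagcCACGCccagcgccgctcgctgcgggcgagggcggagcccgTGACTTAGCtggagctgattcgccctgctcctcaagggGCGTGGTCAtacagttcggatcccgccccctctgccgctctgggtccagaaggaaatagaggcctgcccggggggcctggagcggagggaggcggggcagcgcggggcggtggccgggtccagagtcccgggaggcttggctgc

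The window of Cyp1a1 holds 1 GCGTG, that of Tiparp holds 1 and that of Ugdh holds 3, of which 1 overlaps an antioxidant core. A window was found for 22 of the 25 called genes and for 11869 measured genes, and a gene was counted when any of its windows matched on either strand. GCGTG was present for 10 of the 22 called genes (45.5%) and for 47.3% of measured genes. The longer AhR element TNGCGTG, which contains that core, was present for 0 of the 22 (0.0%) and for 7.88% of measured genes. TGACNNNGC was present for 8 of the 22 (36.4%) and for 15.7% of measured genes. Among the called genes with the antioxidant core were Nfe2l2, Srxn1, Slc35d1, Ugdh, Nup155, Josd1, Pmm1 and 2900026A02Rik. These shares describe letters in a short window and do not locate binding.

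The other called genes had roles outside detoxification. Tuba8, an alpha-tubulin, read 6.99, 7.94 and 7.68 and then 9.81, 10.03 and 9.72, a rise of 2.32 ± 0.29 (SE; adjusted p = 0.0142). None of the other 10 measured tubulins and actins was called, where 0.168% of all genes were. Ier3, an early response gene that modulates cell survival, rose from 7.24, 7.16 and 6.78 to 8.52, 8.61 and 8.58 (1.51 ± 0.13, SE; adjusted p = 0.00398). The kinase genes Dclk3, of the doublecortin family, and Dapk2, a death-associated kinase, rose by 1.65 ± 0.20 and 1.06 ± 0.15 (SE).

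Receptors and signalling genes were also among the calls. Fzd7, a Wnt receptor, rose from 9.43, 8.88 and 9.50 to 10.47, 10.44 and 10.44 (1.18 ± 0.18, SE; adjusted p = 0.0448). Lrp4, a receptor of the LDL receptor family that takes part in Wnt and agrin signalling, rose from 8.37, 8.64 and 8.14 to 9.72, 9.71 and 9.75 (1.34 ± 0.15, SE; adjusted p = 0.00938). Ackr3, a receptor that scavenges the chemokine Cxcl12, rose from 6.55, 6.56 and 6.70 to 7.62, 7.80 and 7.42 (1.01 ± 0.12, SE; adjusted p = 0.0131). The chemokine itself read 10.40, 10.51 and 10.10 with corn oil and 9.78, 9.90 and 10.02 with TCDD, without overlap but without a call (Cxcl12, -0.44 ± 0.15, SE; adjusted p = 0.544). The adhesion receptor gene Adgrg3 rose by 0.87 ± 0.10 (SE), and Lrrc8c, a subunit of the volume-regulated anion channel, by 0.75 ± 0.10 (SE).

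Among genes of trafficking and organelles, Tbc1d8, of a family that acts on Rab GTPases, rose from 8.35, 8.42 and 8.35 to 9.73, 9.61 and 9.94 (1.39 ± 0.13, SE; adjusted p = 0.00398). Nup155, a scaffold protein of the nuclear pore, rose by 1.40 ± 0.18 (SE; adjusted p = 0.0171), and Slc25a46, a protein of the mitochondrial outer membrane, by 0.66 ± 0.10 (SE; adjusted p = 0.0484). Josd1, a deubiquitinase, rose from 9.14, 9.02 and 9.02 to 10.15, 10.10 and 9.95 (1.01 ± 0.10, SE; adjusted p = 0.00535). The enzyme genes Pla2g12a, a secreted phospholipase A2, and Pmm1, a phosphomannomutase, rose by 0.95 ± 0.12 and 0.74 ± 0.08 (SE). Unc93a and 2900026A02Rik rose by 1.29 ± 0.16 and 0.99 ± 0.12 (SE). The plot of called genes shows every TCDD array to the right of every corn oil array for all 25.

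**Figure D2:**
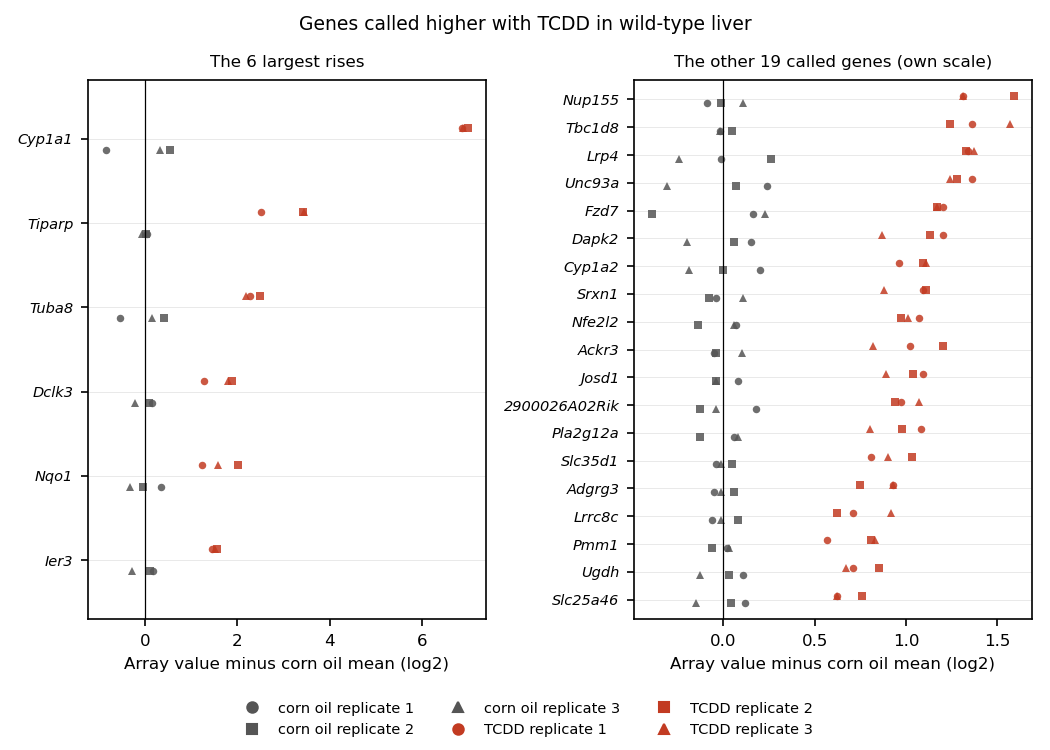
Value of each wild-type array minus the corn oil mean of the gene (log2) for the 25 genes called higher, grey for corn oil and red for TCDD, with a marker shape per replicate number. The left panel holds the 6 largest rises, from Cyp1a1 (6.92) to Ier3 (1.51), and the right panel, on its own scale, the other 19, down to Slc25a46 (0.66).

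Another 2 called probe sets have no gene symbol in the annotation used. Probe set 6942524 read 6.23, 6.22 and 6.42 with corn oil and 10.91, 11.15 and 11.38 with TCDD. Its rise of 4.86 ± 0.69 (SE; 29.0-fold; adjusted p = 0.0309) was second in size to Cyp1a1 among all calls. The knockout corn oil arrays of this probe set read 10.11, 9.07 and 6.52, so that its level without TCDD varied widely in that genotype. Probe set 6960621 rose from 7.48, 7.62 and 7.12 to 9.39, 9.46 and 9.0 (1.88 ± 0.17, SE; adjusted p = 0.00398).

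Below the threshold, 913 genes had an unadjusted p below 0.05 and arrays that did not overlap, the called genes included, 600 higher and 313 lower with TCDD. Regardless of p, 1348 genes (9.07%) had all TCDD arrays above all corn oil arrays and 820 (5.52%) had them below. The 12 largest positive differences that met both conditions but not the adjusted test included Fabp12, Abcd2 and Cish, with adjusted p-values of 0.0568, 0.0627 and 0.0672, against 0.0487 and 0.0484 for Nqo1 and Slc25a46 just inside the threshold.

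Abcd2, Fabp12 and Lpin2 among these 12 concern lipids. Abcd2 carries very long chain fatty acids into peroxisomes. It read 6.58, 6.10 and 5.64 with corn oil and 8.46, 9.28 and 8.04 with TCDD, a difference of 2.49 ± 0.39 (SE). Fabp12, of the fatty acid-binding protein family, read 5.39, 5.24 and 5.75 and then 7.78, 8.12 and 7.46 (2.33 ± 0.36, SE). Lpin2, a phosphatidate phosphatase of triglyceride synthesis, read 9.83, 10.46 and 9.62 and then 11.54, 11.15 and 11.41 (1.40 ± 0.34, SE; adjusted p = 0.31). Mgll, the lipase that splits monoglycerides, was not among the 12 and lay between 10.16 and 10.40 with corn oil and between 11.21 and 11.26 in all TCDD arrays (0.93 ± 0.16, SE; adjusted p = 0.102).

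Of 25 measured genes of fatty acid oxidation and ketogenesis 0 were called by limma, against 0.168% of all genes. Changes were above 0 for 22 of them, against 56.29% of all genes, with a median of 0.23. At an unadjusted p below 0.05, 7 were higher and 0 lower, where 4.62% of all genes were higher and 2.52% lower. Relative to the corn oil means, the list's median was 0.17, -0.01 and -0.19 in corn oil replicates 1, 2 and 3. In TCDD replicates 1, 2 and 3 it was 0.41, 0.14 and 0.21, so corn oil replicate 1 lay above TCDD replicate 2. Vnn1, a pantetheinase and target of PPAR alpha, read 9.70, 8.19 and 8.34 and then 10.94, 9.79 and 10.09 (1.53 ± 0.52, SE; adjusted p = 0.557). Cpt1a, the gatekeeper of mitochondrial fatty acid uptake, read 12.23, 12.32 and 12.50 and then 12.73, 12.62 and 12.60 (0.30 ± 0.10, SE; adjusted p = 0.525). Cyp4a14, a fatty acid hydroxylase named here after its values were seen, varied even among corn oil arrays. It read 10.61, 8.20 and 6.90 with corn oil and 12.80, 10.49 and 12.00 with TCDD, and corn oil replicate 1 overlapped TCDD replicate 2 (3.19 ± 0.94, SE; adjusted p = 0.469). The acyl-CoA thioesterase gene Acot3 read 6.42, 6.72 and 6.13 and then 8.11, 7.14 and 7.92 (1.30 ± 0.36, SE; adjusted p = 0.406), and it is close in sequence to its neighbours in that family.

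Genes of fatty acid synthesis lay on the other side. None of 21 measured members was called, where 0.168% of all genes were. The list's median was -0.29, and 18 of 21 changes were below 0, against 43.27% of all genes. Without TCDD replicate 2 the median was -0.12. Relative to the corn oil means, the list's median was -0.11, -0.33 and -0.03 in TCDD replicates 1, 2 and 3. It lay between -0.07 and 0.08 in the corn oil arrays, a range that held TCDD replicate 3. Acacb, an acetyl-CoA carboxylase, read 10.19, 10.37 and 10.21 and then 9.78, 9.88 and 9.91 (-0.40 ± 0.15, SE; adjusted p = 0.588). Elovl1, an elongase, read 10.49, 10.42 and 10.62 and then 10.17, 10.22 and 10.23 (-0.30 ± 0.07, SE; adjusted p = 0.286). Elovl5, an elongase of polyunsaturated fatty acids, went the opposite way, from 12.26, 12.04 and 12.21 to 12.71, 12.64 and 12.54 (0.46 ± 0.15, SE; adjusted p = 0.519). Acly and Fasn, at the start and centre of the pathway and named here after their values were seen, differed by -0.59 ± 0.25 and -0.45 ± 0.25 (SE). In both genes TCDD replicate 3 lay within the corn oil range.

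Genes of cholesterol synthesis differed more among the TCDD arrays than between the groups. The median over 18 genes, relative to the corn oil means, was -0.61, -0.06 and 0.31 in TCDD replicates 1, 2 and 3, and between -0.11 and 0.07 in the corn oil arrays. Cyp7a1, the rate-limiting enzyme of bile acid synthesis, read 11.45, 12.49 and 10.87 with corn oil and 8.77, 9.40 and 12.04 with TCDD. TCDD replicates 1 and 2 were below all corn oil arrays and replicate 3 was not (-1.53 ± 1.29, SE; adjusted p = 0.872), and the difference was -2.52 without replicate 3. Abcg5 and Abcg8, which form the sterol exporter, were higher in all TCDD arrays by 0.78 ± 0.25 and 0.88 ± 0.29 (SE; adjusted p = 0.515 and 0.525). Klb, the co-receptor for FGF15 and FGF21, read 9.52, 9.33 and 8.24 and then 10.16, 10.30 and 10.34 (1.24 ± 0.48, SE; adjusted p = 0.61).

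Growth hormone acts on liver through JAK2 and STAT5, which induce Cish and repress Bcl6. Cish, a feedback inhibitor of the pathway, read 7.12, 7.49 and 7.06 with corn oil and 9.05, 9.26 and 9.78 with TCDD (2.14 ± 0.34, SE; adjusted p = 0.0672). Bcl6, a transcriptional repressor, read 10.85, 10.88 and 10.58 and then 10.28, 8.47 and 8.79 (-1.59 ± 0.56, SE; adjusted p = 0.568). TCDD replicate 1 lay much closer to the corn oil arrays than replicates 2 and 3. Socs3, another feedback inhibitor, was higher in all TCDD arrays by 0.66 ± 0.21 (SE; adjusted p = 0.517), while Socs2, named after its values were seen, overlapped between the groups. Jak2 and Stat5a, also named after their values were seen, were lower in all TCDD arrays. They differed by -0.21 ± 0.09 and -0.28 ± 0.11 (SE; adjusted p = 0.66 and 0.618). The activity of the pathway was not tested. Of 18 measured genes of this axis 4 positive and 3 negative differences had an unadjusted p below 0.05, against 4.62% and 2.52% of all genes. None of the 18 was called, where 0.168% of all genes were.

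The response of glucose genes was uneven. Ppp1r3b, which brings a phosphatase to glycogen and so promotes glycogen storage, had the largest negative difference of the genes named by rule. It read 10.75, 10.92 and 10.65 with corn oil and 8.94, 8.52 and 9.64 with TCDD (-1.74 ± 0.63, SE; 3.34-fold lower; adjusted p = 0.58). Pklr, the liver pyruvate kinase, read 12.24, 12.25 and 11.77 and then 11.49, 11.12 and 11.58 (-0.69 ± 0.26, SE; adjusted p = 0.592). The gluconeogenic genes Pck1 and G6pc differed by 0.11 ± 0.32 and -0.04 ± 0.39 (SE), with overlapping arrays. Their differences changed sign when single arrays were left out. The SE leaves room for a change of either sign in both.

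No gene was called lower, and the 16 largest negative differences with an unadjusted p below 0.05 and no overlap ran from -1.74 to -0.77, 7 of them at least 2-fold. Tle3, a co-repressor of the Groucho family, was steady within groups, at 9.37, 9.14 and 9.06 and then 8.09, 8.21 and 8.12 (-1.05 ± 0.20, SE; adjusted p = 0.131). Plekhb2, a protein with a pleckstrin homology domain, read 8.40, 8.53 and 8.50 and then 7.63, 7.65 and 7.69 (-0.82 ± 0.17, SE; adjusted p = 0.173). It was called lower when only the 6 wild-type arrays were fitted. Gm7180 read 6.02, 5.94 and 5.88 and then 4.95, 4.98 and 4.39 (-1.17 ± 0.20, SE; adjusted p = 0.0909). It came closest to a call among the 16.

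Others of the 16 have roles in hormone response and proteostasis. Tsc22d3, a gene induced by glucocorticoids, read 9.44 to 10.21 with corn oil and 8.80 to 9.17 with TCDD (-0.89 ± 0.29, SE; adjusted p = 0.522). Clpx, the unfolding subunit of a mitochondrial protease, read 11.28, 11.23 and 11.44 and then 10.39, 10.58 and 9.74 (-1.08 ± 0.28, SE; adjusted p = 0.33). The remaining genes of the 16 were Cry1, Zfand4, Lyve1, the carboxylesterase Ces4a, Erc2, Gask1a, Slc45a3, the histone gene H2bc1 and Ablim3, between -1.11 and -0.77. The plot of uncalled genes shows them beside the 12 largest positive differences.

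**Figure D3:**
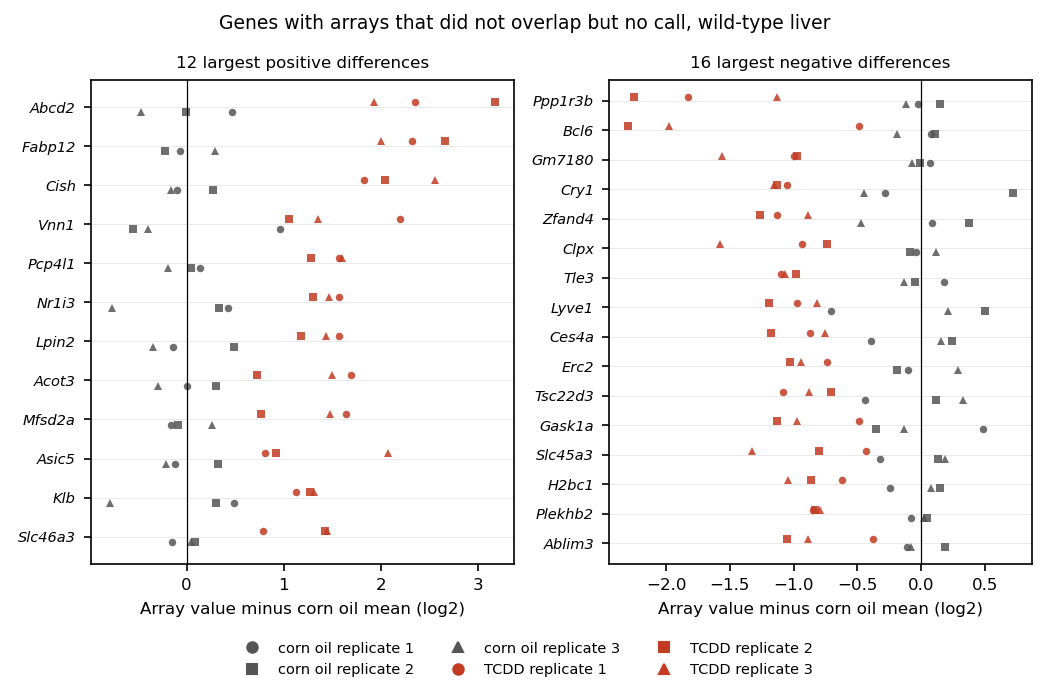
Value of each wild-type array minus the corn oil mean of the gene (log2), grey for corn oil and red for TCDD, with a marker shape per replicate number. On the left are the 12 largest positive differences short of a call, from Abcd2 (2.49) to Slc46a3 (1.22), and on the right the 16 largest negative differences, from Ppp1r3b (-1.74) to Ablim3 (-0.77). Several have TCDD arrays far apart from each other.

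Clock genes differed between the TCDD mice. Cry1, a repressor of the clock, was alike in all TCDD arrays, at 6.83, 6.75 and 6.73, and below the corn oil values of 7.60, 8.6 and 7.43 (-1.11 ± 0.27, SE; adjusted p = 0.314). Nr1d2, a nuclear receptor of the clock, was above them in all, at 10.28, 10.08 and 10.49 against 9.49, 9.09 and 8.84 (1.14 ± 0.40, SE; adjusted p = 0.568). Dbp, Arntl and Bhlhe41, named after their values were seen, were set apart by TCDD replicate 3. Arntl, a core activator, read 9.02, 9.17 and 9.17 with corn oil and 8.58, 8.64 and 6.77 with TCDD. The difference of Dbp was 1.65 over all arrays and 0.89 without TCDD replicate 3, and that of Arntl was -1.12 and -0.51. None of 15 clock genes was called, where 0.168% of all genes were. The part of the clock state of TCDD replicate 3 in the other differences was not tested.

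Marker genes of other liver cells were read in the same arrays. In bulk tissue, fewer cells of a type and less RNA per cell cannot be told apart. Of 17 measured markers of sinusoidal endothelial cells, which line the liver's capillaries, 14 had all TCDD arrays below all corn oil arrays, against 5.52% of all genes. None was called, where 0.168% of all genes were, and 8 were lower at an unadjusted p below 0.05, against 2.52% of all genes. The median change of the markers was -0.25, between -0.29 and -0.23 in the fits that left out 1 wild-type array. Their summed signal on the linear scale was 17.9 to 19.3 with corn oil and 14.4 to 15.0 with TCDD, in units of 1000. No other marker list of the 13 had more than 3 members below without overlap.

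The scavenger receptor Stab2, a defining endothelial marker, read 9.94, 9.93 and 10.04 with corn oil and 9.64, 9.77 and 9.60 with TCDD (-0.30 ± 0.09, SE; adjusted p = 0.45). Gpr182 read 11.11, 11.28 and 11.38 and then 10.88, 10.79 and 10.74 (-0.45 ± 0.14, SE; adjusted p = 0.5). Lyve1, a hyaluronan receptor, had the largest difference and read 8.41, 9.62 and 9.33 and then 8.15, 7.93 and 8.30 (-0.99 ± 0.44, SE; adjusted p = 0.673). The exception was Egfl7, named after its values were seen, at 0.14 ± 0.09 (SE). In the knockout arrays, which are separate mice, all 17 markers had negative differences with TCDD, with a median of -0.47. Of these markers 8 were called lower. Over all probe sets, TCDD gave 1303 calls (5.58%) in the knockout in both directions together, 516 of them (2.21%) higher.

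Stellate cell and fibroblast markers had a median of -0.14, between -0.24 and -0.02 without single arrays, and TCDD replicate 1 was lowest, at -0.40 against -0.07 and -0.04 in replicates 2 and 3. Among them Pdgfrb and Vim were lower in all TCDD arrays, by -0.37 ± 0.09 and -0.39 ± 0.09 (SE; adjusted p = 0.271 and 0.312). Kupffer cell markers had a median of -0.17, and their summed signal overlapped, at 6.51 to 10.4 with corn oil and 4.86 to 8.91 with TCDD in the same units. Without single arrays that median lay between -0.33 and 0.06. The 6 hepatocyte markers had a median of 0.00 and a summed signal of 57.7 to 59.9 with corn oil and 58.9 to 60.0 with TCDD. The 9 measured markers of periportal hepatocytes had a median of -0.24, between -0.28 and -0.08 without single arrays. Of these 9, 6 had changes below 0, against 43.27% of all genes, and 2 were below without overlap, against 5.52%. The 12 markers of pericentral hepatocytes had a median of 0.00.

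**Figure D4:**
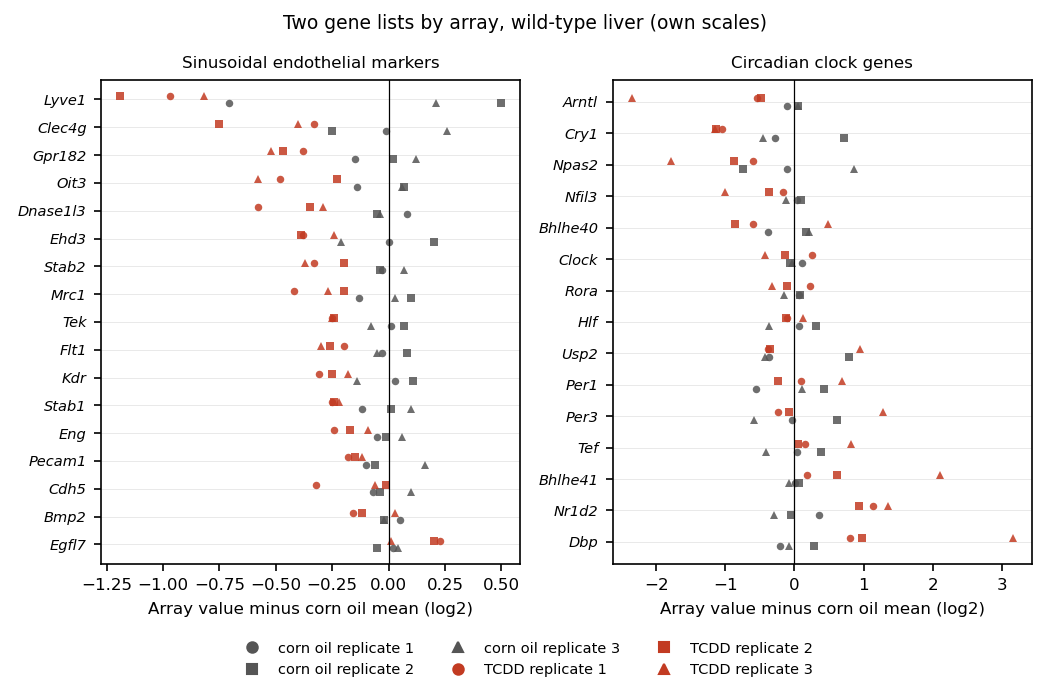
Value of each wild-type array minus the corn oil mean of the gene (log2), for 17 sinusoidal endothelial markers (left) and 15 circadian clock genes (right, own scale), grey for corn oil and red for TCDD, with a marker shape per replicate number. Most endothelial markers have all TCDD arrays below all corn oil arrays, while among clock genes TCDD replicate 3 (triangles) is often far from replicates 1 and 2, as for Dbp and Arntl.

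Of 54 gene lists, 46 had no called member. With 0.168% of all genes called, a list without a call does not set its pathway apart from genes in general. Of the 792 listed genes that were measured 11 were called, against 0.168% of all genes. The lists were chosen with earlier results known, and 7 of these 11 calls were in the list of AhR target genes. The 32 measured genes of the respiratory chain had a median change of 0.02 and ran from -0.17 to 0.17. Of these, 0 had an unadjusted p below 0.05 or arrays without overlap. Among all genes, 4.62% were higher and 2.52% lower at that p. Without overlap, 9.07% of all genes lay higher and 5.52% lower. Interferon-stimulated genes had a median of -0.02 over 24 genes, acute phase proteins 0.00 over 23, and heat shock chaperones -0.02 over 10. Male-biased liver genes had a median of -0.19, with 12 of 14 changes below 0, against 43.27% of all genes. Only 1 of these 14 was lower at an unadjusted p below 0.05, and their median in the knockout was 0.05. Female-biased liver genes had a median of 0.02, with 9 of 14 changes above 0, against 56.29% of all genes. The cell cycle list was near 0 (median -0.03), but Myc, a growth-promoting transcription factor, read 7.24, 7.77 and 7.25 and then 9.19, 8.17 and 8.48 (1.19 ± 0.32, SE; adjusted p = 0.384). Tfrc, the transferrin receptor, read 7.16, 7.47 and 7.57 and then 7.93, 8.59 and 8.69 (1.00 ± 0.27, SE; adjusted p = 0.379). Alas1, the enzyme that begins haem synthesis, read 10.67, 11.30 and 10.91 and then 11.93, 11.83 and 12.34 (1.07 ± 0.43, SE; adjusted p = 0.632). The plot of gene lists places AhR targets alone at the upper end.

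**Figure D5:**
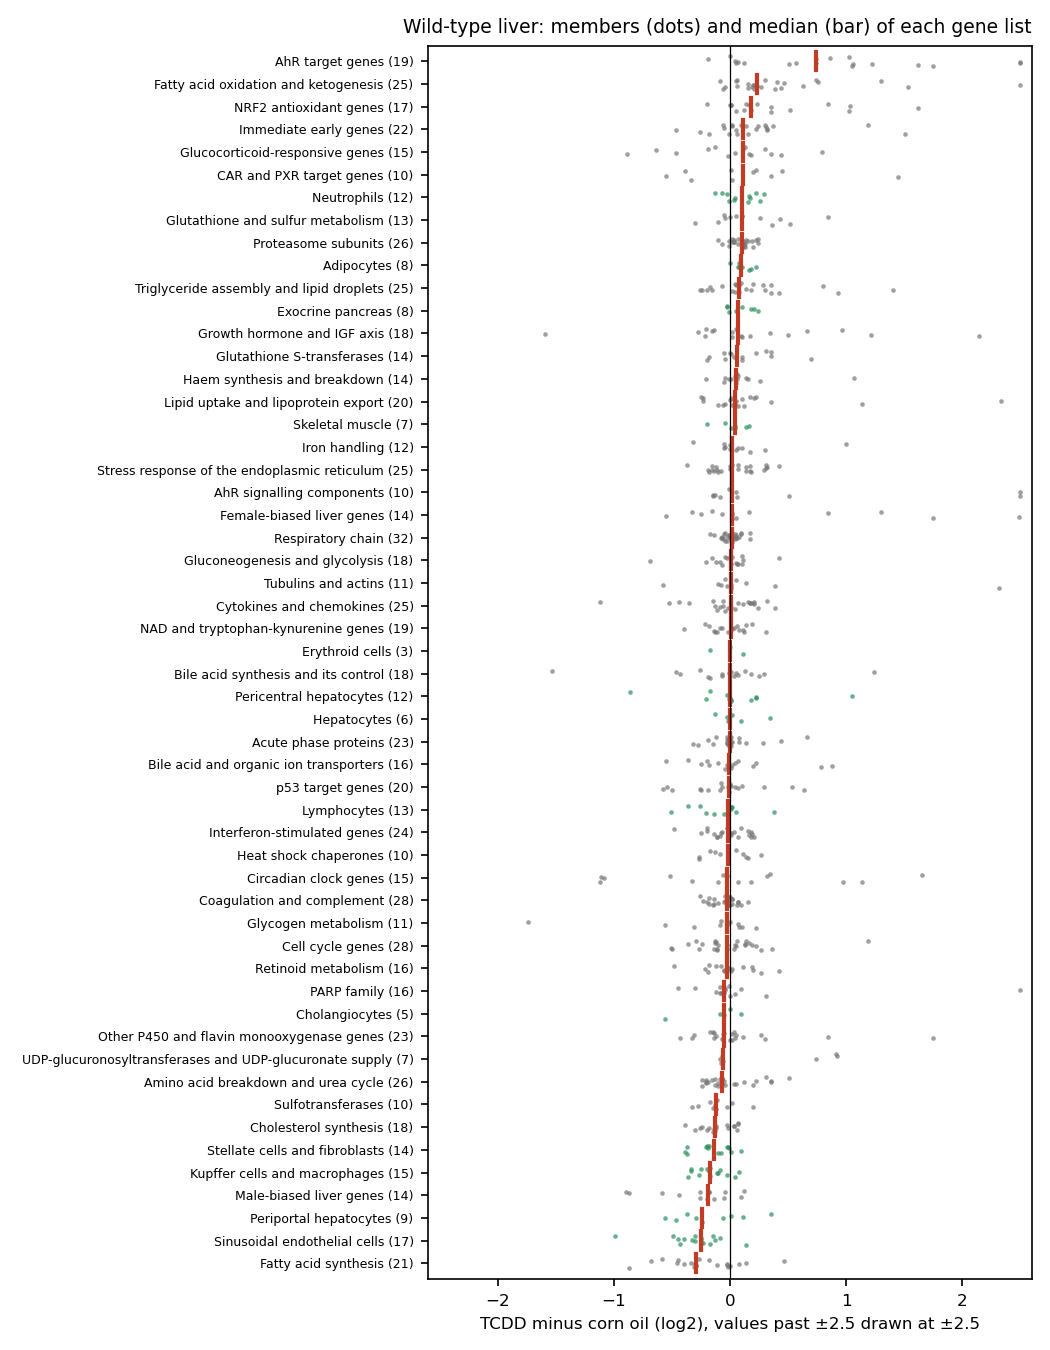
TCDD minus corn oil (log2) in wild-type liver for the measured members (dots, grey for pathways and green for cell markers) of 54 gene lists, with the number measured in brackets and the median as a red bar. AhR target genes have the highest median (0.74) and fatty acid synthesis the lowest (-0.29), and most medians lie near 0.

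The knockout arrays allow a test of whether a response differed in wild-type liver. Of the 25 genes called in wild-type liver, 21 were also called higher in the knockout, where 1303 probe sets (5.58%) were called and 516 of them (2.21%) were higher, and 15 had a larger change there. The difference between the TCDD effects was called for 37 probe sets (0.159%), and Pmm1 was the only member of the 25 among them. Pmm1 changed by 0.74 in wild-type liver and by 1.78 in the knockout, a difference of 1.04 (interaction adjusted p = 0.0242). Genes called in wild-type but not in the knockout were Tiparp, the deleted gene, Ier3 (0.50 in the knockout), Unc93a (0.13) and Lrrc8c (0.17). The interaction did not pass the test for any of them, with adjusted p-values of 0.0742, 0.0742, 0.0754 and 0.117. Mean levels with corn oil were 8.07 (Ier3), 7.91 (Unc93a) and 9.26 (Lrrc8c) in the knockout, against 7.06, 7.62 and 8.44 in wild-type liver. With TCDD they were 8.57, 8.04 and 9.44 in the knockout, against 8.57, 8.91 and 9.19. Of the 16 genes with the largest negative differences, 9 were below 0 in the knockout, 1 was called lower there (Ablim3) and 1 was called higher (Gm7180).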

How the data were processed

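The deposited values are log2 expression values that the authors made with RMA. Affymetrix Expression Console, RMA and mm9 are named per the submitters' processing notes, with no version or probe set level. The log2 values were analysed as deposited, without rescaling or a filter; their range was 1.05 to 14.16 and each array's median fell between 6.91 and 7.00. Of 23332 probe sets, 14996 had a single symbol, 1019 several and 7317 none, and 14941 matched RefSeq, GRCm38.p6. Where probe sets shared a symbol, that with the highest mean over all arrays stood for the gene, giving 14860 genes.

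Group means of all 12 arrays (3 in each of 4 groups) were fitted in R 4.3.3 by limma 3.58.1, with 8 residual degrees of freedom, so that the spread includes the knockout arrays. Benjamini-Hochberg adjustment ran over all probe sets, and a call is an adjusted p below 0.05. SE is of the log2 change. The fit was tested on simulated data. Labels call the arrays biological replicates.

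Members and lists were chosen with earlier results of these data known. The rule for naming took all called genes, and the 12 largest positive and 16 largest negative differences with an unadjusted p below 0.05 and no overlap. It also took called members of 54 lists (41 of pathways, 13 of cell markers) with up to 3 further members each, and 16 fixed genes. The text names every called gene and all 16 negative differences, but only part of the rest. Left undescribed were, among others, the fixed genes Elovl3, Cd36, Vldlr, Fgf21 and Igfbp1. So were Pcp4l1, Nr1i3, Mfsd2a and Asic5 of the positive differences. Names outside this rule are marked in the text, except the hepatocyte markers Alb and Ttr. Same-numbered wild-type arrays did not deviate together (correlations 0.004, -0.052 and -0.036), so numbers were not used as pairs.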

Additional observations from a re-analysis of the deposited data

Results flagged for a closer look

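The difference between the TCDD effects of knockout and wild-type liver passed the test for 7 genes named by the rule. In 6 of them the knockout effect was the more positive. In 5 of these 6 the log2 difference was 1.04 (Pmm1), 2.06 (Gm7180), 2.38 (Tnfaip2), 1.47 (Acacb) and 2.09 (Gadd45b), with interaction adjusted p-values of 0.0242 to 0.0315. Gm7180 and Acacb had opposite signs, at -1.17 and -0.40 in wild-type liver and 0.89 and 1.07 in the knockout. Klf10, an early response gene, had a difference of -1.36, from 0.31 in wild-type liver and -1.05 in the knockout. Ctrb1, a gene of the exocrine pancreas with low signal here, was the other gene with a more positive effect in the knockout, with a difference of 0.86 (interaction adjusted p = 0.0449). Leaving out single arrays took each of these interaction p-values above the threshold in at least 1 fit, with highest values of 0.0697 (Pmm1) to 0.139 (Ctrb1).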

How the results depend on the processing

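The number of probe sets called higher in wild-type liver, 27 over all arrays, was 11 with only the 6 wild-type arrays, 15 with the replicate number as a block, 42 with array weights and 45 without the lowest 50% of probe sets, and 6 to 33 when single arrays were left out. The number called lower, 0, was 2 with only the wild-type arrays, 2 with only single-symbol probe sets, 1 and 7 without the lowest 25% and 50%, 5 with array weights, and 0 to 4 without single arrays. The 37 interaction calls became 162 with only single-symbol probe sets, 61 with quantile normalization again, 149 and 396 without the lowest 25% and 50%, 57 with trended variance, 693 with array weights, 0 with the replicate block, and 0 to 546 without single arrays. The causes were not tested. Without single wild-type arrays the difference of Ahr lay between -0.28 and 0.08 (above 0 without TCDD replicate 1), that of Pck1 between -0.06 and 0.25 (below 0 without corn oil replicate 1) and that of G6pc between -0.21 and 0.06 (0.02 without TCDD replicate 2 or corn oil replicate 1, 0.06 without TCDD replicate 3). These were the only 5 reversals among the named genes and alternatives run. With 3 arrays a group, absent calls do not show absent changes, and a probe set near background can understate a fold.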
